A study of Mus musculus with 10 samples.

Results

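Of the 14108 glucocorticoid receptor (GR) peaks called in skeletal muscle of fed mice, 3279 lay away from promoters, carried no peak of lysine-specific demethylase 1 (LSD1) in the fed state, and had no GR peak left after 24 h of starvation. These members were chosen by their measured presence in the GR fed list and absence from the LSD1 fed and GR starved lists, and by position. The midpoint of the fed GR peak had to lie outside every promoter, taken as 1 kb upstream to 100 bp downstream of a RefSeq transcription start site (TSS), which left 10955 distal peaks, and the peak could share no base with an LSD1 fed peak or with a GR starved peak. They were compared with the 3 other classes of distal GR fed peaks, namely 2995 without LSD1 that were kept in starved muscle, 892 with LSD1 that were lost, and 3789 with LSD1 that were kept. "Lost" means only that the deposited starved list held no overlapping peak, and "kept" that it held one.

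The mice were C57BL/6J, with an age of 10 weeks in the labels and another age in the study's text, and were either fed or starved for 24 h. Chromatin immunoprecipitation sequencing (ChIP-seq) of their skeletal muscle gave 1 library per condition for GR, for LSD1, for the histone marks H3K9me1 and H3K9me2 (1 or 2 methyl groups on lysine 9 of histone H3) and for input chromatin, 10 libraries in all. Each of the 8 peak lists came from 1 library, so a difference between lists had no replicate spread to be set against and describes these libraries alone, and whole muscle also holds nuclei other than those of myofibres. The read depth behind the lists is unknown. The GR libraries carried 1 library code in the labels and the LSD1 libraries another, whereas either mark changed code between fed and starved muscle, so that its condition and its code cannot be told apart.

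GR is a nuclear receptor that enters the nucleus when bound by glucocorticoids. It binds as a dimer to the glucocorticoid response element (GRE), a palindrome of 2 arms, and also to chromatin through other transcription factors. LSD1 removes methyl groups from histone H3 and acts with GR and other nuclear receptors at regulatory sequences. In skeletal muscle, GR is known for activating genes of protein breakdown and of fuel switching during fasting, when glucocorticoid levels are high.

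A GRE-like sequence (AGAACA and TGTTCT with 3 free bases between them, searched on both strands with at most 1 mismatch among the 12 fixed letters) was present in 99 members, and 16 of them matched without mismatch. The 6 matches without mismatch in the members of highest fold enrichment are shown first, because they are the plainest instances of the element in sites that were not called after starvation. The plus strand of GRCm38.p6 (RefSeq) is given 5′ to 3′, and capitals mark the 2 arms. Each is named by the gene with the nearest TSS.

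Myoc (chr1:162621750-162621778): cttttaaAGAACAagcTGTTCTcgcttaa
Fbxl17 (chr17:63661314-63661342): tgttaagAGAACAaacTGTTCTtccagag
Erc2 (chr14:27730723-27730751): gggccccAGAACAaacTGTTCTgtggata
Hip1 (chr5:135465856-135465884): tcctttgAGAACActcTGTTCTctttatt
Ndufs5-ps (chr16:42999146-42999174): tgttctcAGAACAtttTGTTCTgaagata
Adamtsl1 (chr4:86288509-86288537): attccaaAGAACAtgtTGTTCTcaacttc

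Among the members with a fold enrichment of at least 5, the 6 of highest fold that carried the element with 1 mismatch are shown because they place the element, with its changed letter, in strong members. In 3 of the 6 the change was at position 13. The token after each gene gives the consensus base, its position counted from 1 at the 5′ end of the 15-base element, and the base found, and capitals again mark the 2 arms.

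Atl2, T13A (chr17:79875964-79875992): atgggcgAGAACAatcTGTACTgggcatg
Homer2, T13G (chr7:81685597-81685625): ctggctcAGAACAgccTGTGCTtgtttcc
Pnpla8, T13A (chr12:44270345-44270373): tgatacaAGAACAgtcTGTACTtgaagtt
Gask1b, A3C (chr3:79898182-79898210): gctcaaaAGCACAttcTGTTCTttatcag
Asb4, T12C (chr6:5408554-5408582): atgaaaaAGAACAcccTGCTCTatactga
Fibin, T15C (chr2:110364031-110364059): tgtcctcAGAACAccaTGTTCCatagcta

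Absence from the starved list was more frequent at distal GR sites without LSD1 than at those with it. Of the 6274 distal GR fed peaks without LSD1, 52.3% were lost, and these are the members. The share was 19.1% of the 4681 distal peaks with LSD1, 20.6% of the 3153 promoter peaks and 34.2% of all GR fed peaks. These shares come from the lists that the choice of members used, so they describe it and were not tested. The starved GR list was the longer one, with 37783 peaks. Its median fold enrichment over input, the authors' ratio of ChIP to input signal at a peak, was 2.70, against 3.29 in the fed list.

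Members were mostly weak and short peaks. Their fold enrichment ran from 1.21 to 8.53 with a median of 3.16 and quartiles of 2.94 and 3.60. The kept peaks without LSD1 had a median of 3.53 and a highest value of 16.5. The median length was 203 bp in members, with a range from 117 to 3722 bp, and 239 bp in kept peaks without LSD1. The median q-value, the peak caller's false discovery rate for a peak, was 0.00667 in members, and 1845 of them (56.3%) had a q-value of 0.01 or less, against 77.3% of kept peaks without LSD1. A q-value of 1e-05 or less was found in 440 members. Fold and q-value of the members stem from the fed list that chose them and are descriptions.

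**Figure D1:**
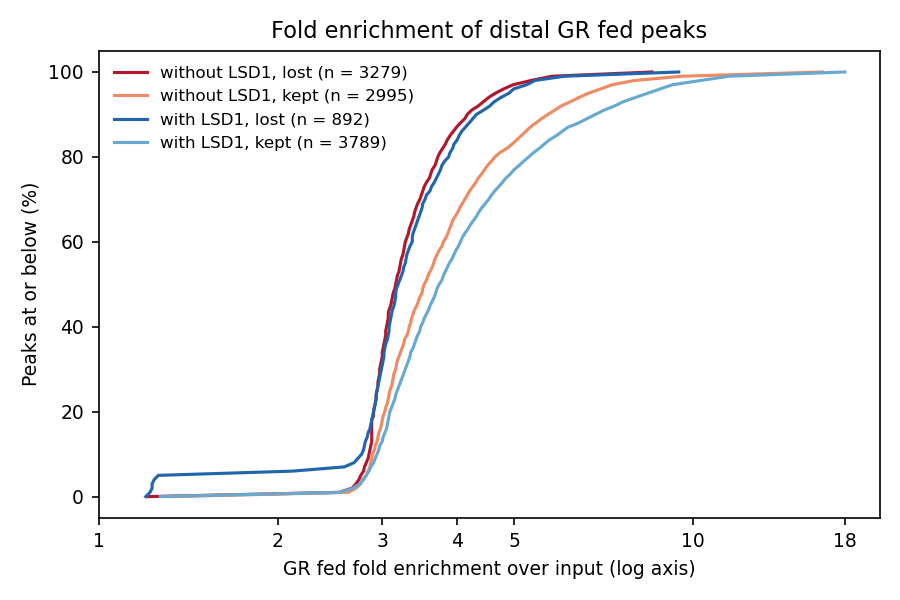
Cumulative share of peaks (%) against GR fed fold enrichment over input (log axis) for the 4 classes of distal GR fed peaks, drawn at each percentile. Both lost classes lie to the left of the kept ones, with medians of 3.16 without LSD1 and 3.19 with LSD1, and members reach 8.53.

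Within every range of fold enrichment, the lost share was higher without LSD1 than with it. Below a fold of 3, 67.2% of distal peaks without LSD1 were lost and 36% of those with LSD1. From 3 to 4 the shares were 54.6% and 21.4%, and from 4 to 5 they were 39.5% and 13.5%. At a fold of 5 or more they were 16% (95% exact Clopper-Pearson interval 13.2 to 19.2) and 3.85% (2.70 to 5.31). All intervals given here cover counting error only, and neighbouring peaks are not independent. Loss and LSD1 status are what the choice of members used, so these shares describe it as well. Peaks with LSD1 were also longer at like fold. From a fold of 3 to 4 their median length was 236 bp (lost) and 345 bp (kept), against 175 and 226 bp without LSD1. The part of length in the lost shares was not tested. Among distal peaks without LSD1, the lost share differed little between introns, intergenic sequence and exons. It was 52% in introns, 53.1% in intergenic sequence and 50.2% in exons. Distance to the nearest TSS, which did differ between lost and kept peaks, is given below.

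The peaks kept without LSD1 show how the 2 GR lists relate where both held a peak. Of the 2995 kept peaks, 2360 (78.8%) had a higher fold in the fed than in the starved list, and their median starved fold was 3.02. Kept peaks with a fed fold below 3 had a median starved fold of 2.73, and those with a fed fold of 5 or more had 4.13. The part of this lower scale of the starved list in the loss of members was not tested.

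Sites on either side of the limit that separates lost from kept had folds in the same range. The member nearest to a starved GR peak, chr17:86293334-86293450 in an intron of Prkce, a protein kinase C gene, had a fold of 3.21 and touched a starved peak of fold 2.88 without sharing a base. A member near Crb2 (fold 3.53) also touched a starved peak, of fold 2.54, and a member near Slc16a3 (fold 2.70) lay 1 bp from a starved peak of fold 2.59. On the kept side, peaks near Tns1 (2.87) and Fut10 (2.96) shared 1 bp with a starved peak, of fold 2.68 and 3.12. Few members lay that close to the limit. A starved peak edge lay within 100 bp of the edge of 75 members (2.29%) and within 500 bp of 223 (6.80%).

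Most members nevertheless lay in neighbourhoods that held a starved GR peak elsewhere. Measured from the midpoint, a starved peak lay within 1 kb of 11.7% of members, within 10 kb of 52.2% (50.5 to 53.9) and within 50 kb of 83.2%. The median distance was 8904 bp. Lost peaks with LSD1 had like shares, of 12.7%, 54.5% (51.1 to 57.8) and 85.7%, so this closeness was not particular to members. The share of other genomic positions with a starved peak as close was not measured. A fed GR peak that was kept lay within 10 kb of 25.8% of members. An LSD1 fed peak lay within 10 kb of 36.7% (35.1 to 38.4), against 49.6% (47.8 to 51.4) of the kept peaks without LSD1.

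**Figure D2:**
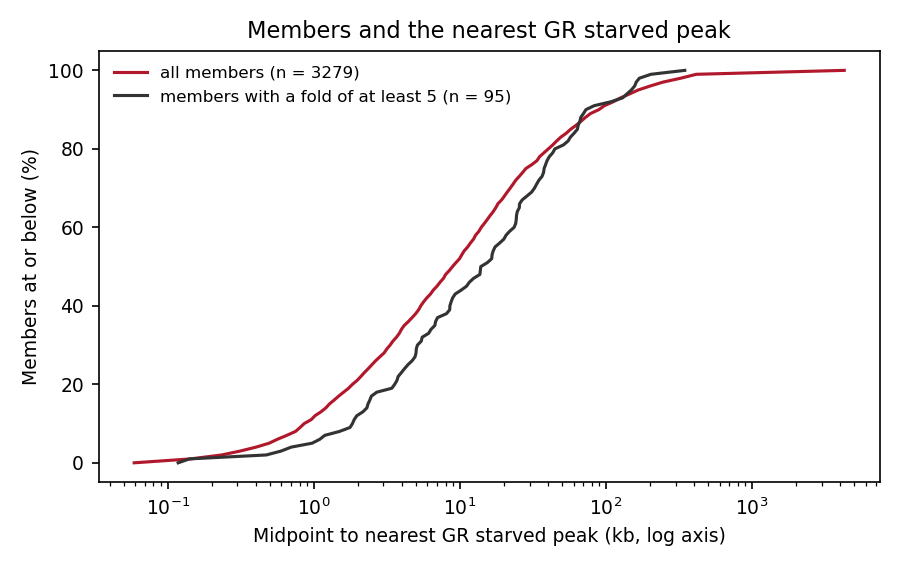
Cumulative share of members (%) against the distance from the midpoint to the nearest GR starved peak (kb, log axis) for all 3279 members and for the 95 with a fold enrichment of at least 5. The medians were 8.90 kb and 13.9 kb, and 42 of the 95 had a starved peak within 10 kb.

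Few of the strongest members had a starved GR peak close by. Of the 95 members with a fold of at least 5, all had a q-value of 1e-05 or less, and 5 had a starved GR peak within 1 kb of the midpoint. The highest fold, 8.53, belonged to a peak at chr17:49734232-49734458 in an intron of the kinesin gene Kif6, 54.8 kb from the nearest starved peak. A peak of fold 8.16 lay 24.7 kb downstream of the TSS of Olfml3, which encodes a secreted olfactomedin-like protein, and shared bases with an H3K9me2 fed peak. An intergenic peak 14.3 kb from Gm34371 had a fold of 8.11 and lay 23.2 kb from a starved peak.

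The remaining 7 of the 10 members of highest fold lay near C130026L21Rik (7.46), Gna14 (7.19), Atl2 (7.13), Zfp423 (7.12), Trp63 (7.11), Eda2r (6.87) and Cdk19 (6.83). Gna14 encodes a G protein alpha subunit, Atl2 a GTPase that shapes the endoplasmic reticulum, and Cdk19 a kinase of the Mediator complex. Eda2r, the receptor of ectodysplasin A2, was the only X-linked gene among these 10, and its member lay 371 kb upstream of the TSS and 160 kb from a starved peak. The distance to the nearest starved peak in these 7 was shortest at Zfp423, a zinc finger transcription factor gene, with 1.88 kb, and longest at Gna14 with 165 kb. Only the Atl2 member of the 10 carried a GRE-like sequence, and only the Zfp423 member was overlapped by an LSD1 starved peak.

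GRE-like sequences were found in members at more than 10 times the share in nearby sequence. They were present in 3.02% of members (2.46 to 3.66) and in 0.183% of equally long flanks placed 5 kb to each side, a ratio of 16.5. In kept peaks without LSD1 the share was 3.64% (3.00 to 4.38), with 0.284% in flanks, so the intervals of the 2 classes overlapped. The share was 0.575% (0.187 to 1.34) in lost peaks with LSD1 and 2.06% (1.63 to 2.57) in kept peaks with LSD1. Over all GR fed peaks it was 2.17%.

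The share rose with fold enrichment among members, as among kept peaks. It was 0.723% below a fold of 3, 3.26% from 3 to 4, 6.34% from 4 to 5 and 13.7% (7.49 to 22.3) at 5 or more, where 13 of 95 members had the element. In kept peaks without LSD1 the shares were 0.370%, 2.62%, 5.72% and 8.05% (5.81 to 10.8). Members were shorter than kept peaks. In a window of 300 bp around each midpoint, members had 0.723%, 3.26%, 6.04% and 13.7% (7.49 to 22.3). Kept peaks without LSD1 had 0.185%, 2.07%, 5.13% and 7.24% (5.12 to 9.89) in that window. In peaks and in windows alike, the member share was the higher one in each range and the intervals of lost and kept peaks overlapped. A difference at equal fold was not tested. In lost peaks with LSD1 the element was found in 1 of 466 peaks with a fold from 3 to 4, a share of 0.215% (0.00543 to 1.19), against 3.26% (2.48 to 4.21) of members in that range. Kept peaks with LSD1 had 0.468% (0.202 to 0.92) there, so the low share was common to both classes with LSD1.

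**Figure D3:**
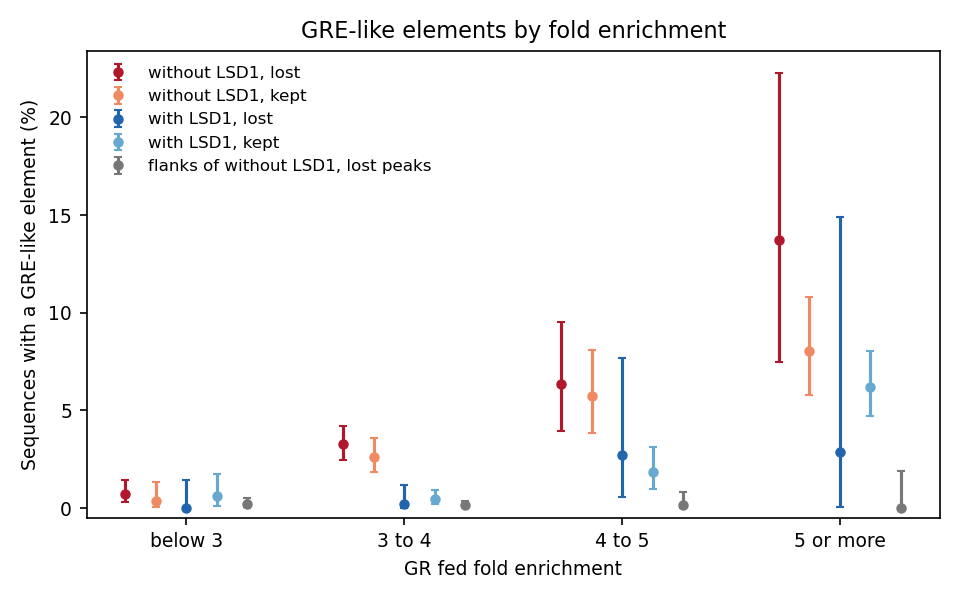
Share of sequences (%) with a GRE-like element in 4 ranges of GR fed fold enrichment, for the 4 classes of distal GR fed peaks and for the flanks of members, with exact 95% intervals. Members (dark red) go from 0.723% below a fold of 3 to 13.7% at a fold of 5 or more, while their flanks stay near 0.

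The element lay close to the middle of the members. Its centre was a median of 25 bp from the peak midpoint, and in 73 of the 99 members (73.7%) it was within 50 bp. The search covered the peaks only, with a median length of 203 bp in members, so peak length itself limits this distance. The closeness to be had from length alone was not measured. The Myoc element was 2 bp from the midpoint of a peak of fold 5.34, 17.4 kb upstream of the TSS of the gene for the secreted glycoprotein myocilin. The Erc2 element lay 4 bp from the midpoint in an intron of this gene of the presynaptic active zone, in a member of fold 4.04 that was 202 kb from any starved GR peak. At Hip1, which encodes an adaptor of clathrin-coated vesicles, the member had a fold of 3.96 and also shared bases with an H3K9me2 fed peak.

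Mismatches were uneven across the element. In the 83 members with 1 mismatch, it fell on the outermost letter of an arm (position 1 or 15) in 30 and on position 3 or 13 in 29. The innermost letters (position 6 or 10) accounted for 10. The letters at position 2 or 14 and at 5 or 11 accounted for 5 each, and those at 4 or 12 for 4. Of the sequences shown above, those at Atl2, Homer2, Pnpla8 and Gask1b had the change at position 3 or 13.

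AP-1 and FOX motifs separated both lost classes from kept peaks without LSD1. The AP-1 motif, TGANTCA, was found in 7.99% of members (7.08 to 8.97) and 7.52% of their flanks. In kept peaks without LSD1 it was found in 12.7% (11.5 to 13.9) and 8.72% of flanks. The forkhead motif FOX, TGTTTAC, was in 3.45% of members (2.85 to 4.13) against 3.74% of flanks, and in 6.55% of kept peaks (5.69 to 7.49) against 4.21% of flanks. For both motifs the member share was near that of the flanking sequence, and the intervals of members and kept peaks did not overlap. Lost peaks with LSD1 had shares like those of members, with AP-1 in 7.83% (6.13 to 9.81) and 8% of flanks and FOX in 3.45% (2.34 to 4.89) and 4.14% of flanks.

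By range of fold, the AP-1 share in members was 9.67% (7.99 to 11.6) below a fold of 3, 7.45% from 3 to 4, 6.34% from 4 to 5 and 4.21% (1.16 to 10.4) at 5 or more. In kept peaks without LSD1 it was 10.6% (8.09 to 13.5), 12.6%, 13.8% and 14.1% (11.1 to 17.5). The lost and kept intervals overlapped below a fold of 3 and stood apart in the upper 3 ranges. For FOX the member share was also the lower one in each range. Its intervals, however, stood apart only from a fold of 3 to 4 and overlapped in the other ranges. The FOX shares from 3 to 4 were 3.04% (2.28 to 3.95) in members and 6.28% (5.08 to 7.65) in kept peaks. Members were shorter than kept peaks, and in a window of 300 bp around each midpoint, a choice made after seeing the data for motifs other than the GRE, AP-1 was found in 9.18% of members (8.21 to 10.2) and 13.1% of kept peaks (11.9 to 14.3). FOX in that window was found in 4.45% (3.77 to 5.22) and 6.31% (5.47 to 7.24).

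E-boxes, which muscle regulatory factors of the MyoD family bind, were above flanks in both classes. The E-box CAGCTG was found in 20.6% of members (19.2 to 22.0) and 10.3% of flanks, and in 27.9% of kept peaks (26.3 to 29.5) and 14.8% of flanks. The SP/KLF motif, GGGCGG, was found in 7.84% of members and 3.75% of flanks, and in 12.6% of kept peaks and 5.68% of flanks. Lost peaks with LSD1 had 32.6% and 16.5% for these motifs. In the 300-bp window the E-box shares were 23.2% and 29.3%, and the SP/KLF shares 8.72% and 12.9%. Both motifs consist mainly of G and C, and GC content was lower in members.

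Motifs of MEF2 and nuclear factor I (NF1), by contrast, had like shares in lost and kept peaks. The MEF2 motif (CTA and TAG, 4 free bases apart), bound by MEF2 factors in muscle, was in 6.01% of members and 6.15% of kept peaks, with 3.86% and 4.33% in flanks. The full NF1 palindrome, TTGGC and GCCAA with 5 free bases between them and at most 1 mismatch, was in 1.43% and 1.5%, and a single NF1 arm, TTGGCA, which can overlap the palindrome and was added after seeing the data, was in 23.7% and 23.9%. A single GRE arm, AGAACA, which also occurs within the full element, was in 32.1% of members and 35.6% of kept peaks, but in the 300-bp window the shares were 35.1% and 35%. The CTCF motif (CCA, AG and GGC with 2 free bases between each) was in 2.50% and 3.17%. The NRF1 motif, GCGC and GCGC with 2 free bases between them, was rare in members with 0.335% (0.168 to 0.599), against 0.381% in their flanks. It was in 0.935% (0.622 to 1.35) of kept peaks without LSD1, an interval that did not overlap that of members, and in 1.96% of lost peaks with LSD1. A match describes letters only, and all motifs were searched on both strands.

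**Figure D4:**
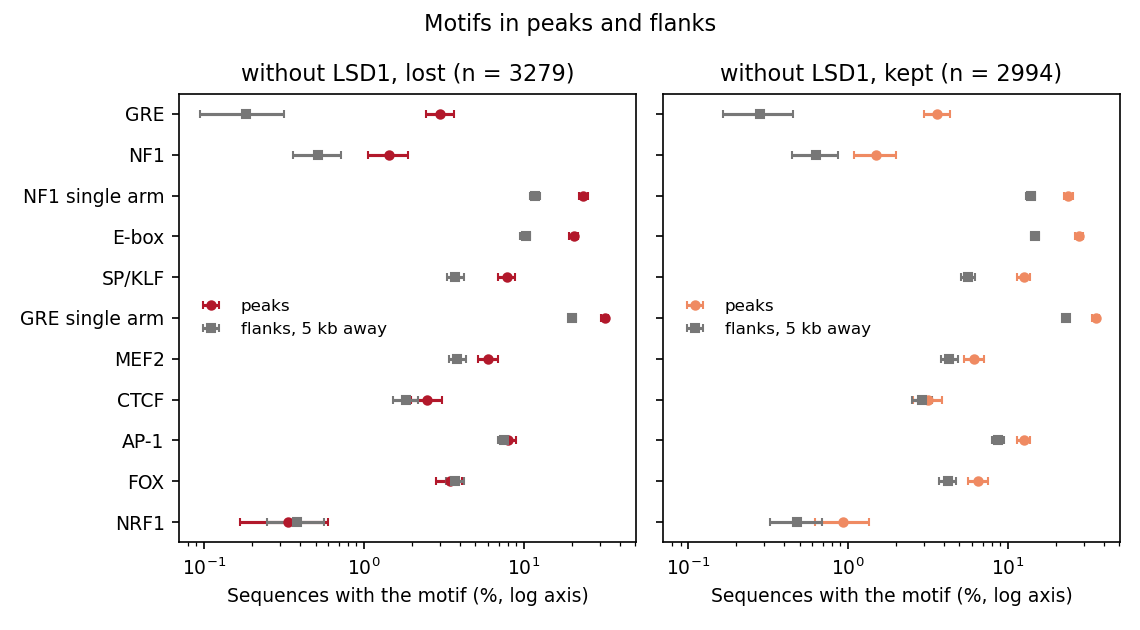
Share of sequences (%, log axis) with each motif in peaks (circles) and in equally long flanks 5 kb away (grey squares), for members (left) and kept peaks without LSD1 (right), with exact 95% intervals. AP-1 and FOX lie on their flanks in members (7.99% and 3.45%) and above them in kept peaks (12.7% and 6.55%).

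Members also differed from kept peaks in base composition and repeats. The median GC content was 48.5% in members and 44.7% in their flanks, against 51.5% and 46.5% for kept peaks without LSD1. Lost peaks with LSD1 had 51.7% and kept peaks with LSD1 53.4%. More than 50% of bases were repeat-masked in 187 members (5.70%, 4.93 to 6.55), against 2.30% (1.80 to 2.91) of kept peaks without LSD1. Lost peaks with LSD1 had 5.64% (4.2 to 7.39), so the repeat share separated lost from kept peaks and not members from the other lost class. The typical member still held few repeats, with a median of 5.98% of bases masked, against 22.1% in its flanks.

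Members lay in introns as often as kept peaks, but farther from start sites. Introns held 1881 members (57.4%), intergenic sequence 1187 (36.2%) and exons 211 (6.43%), and the shares of kept peaks without LSD1 were 57.9%, 35.1% and 6.98%. The median distance to the nearest TSS was 22677 bp in members and 17000 bp in kept peaks. A distance of 100 kb or more was found in 14.7% of members (13.5 to 15.9) and in 8.11% of kept peaks (7.16 to 9.15). Lost peaks with LSD1 were close to members, with a median of 21219 bp and 12.4% (10.3 to 14.8) at 100 kb or more. The X chromosome held 28 members and the Y chromosome 4.

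LSD1 in starved muscle, which the choice of members did not use, was rarely called at these sites. An LSD1 starved peak shared bases with 127 members (3.87%, 3.24 to 4.59), 1.40% of their flanks (1.13 to 1.72) and 11.9% (10.7 to 13.1) of kept peaks without LSD1. The flanks of those kept peaks had 2.97% (2.56 to 3.43). The share was 16% in lost peaks with LSD1, 29% in kept peaks with LSD1 and 21.4% of all GR fed peaks. The member share was the lower one in each range of fold. It was 4.88%, 3.72%, 1.81% and 2.11% (0.256 to 7.40) in the 4 ranges from below 3 to 5 or more, against 16.3%, 12.3%, 10.7% and 7.23% (5.11 to 9.87) in kept peaks without LSD1, and the intervals overlapped in the last range only. Members were shorter than kept peaks, and the part of length in this difference was not tested. These shares rest on a deposited LSD1 starved list of 66332 peaks, far more than the study's text gives, with a shortest peak of 49 bp against 117 bp in GR fed. With LSD1 starved peaks of q-value 0.01 or less, of which there were 6790, the share was 0.701% (0.445 to 1.05) in members and 1.80% (1.36 to 2.35) in kept peaks without LSD1, and 8.41% and 5.75% in lost and kept peaks with LSD1.

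The LSD1 starved peaks at members were modest. Their fold enrichment had a median of 3.35 and a range from 1.29 to 5.19, and 23 of the 127 had a q-value of 0.01 or less. The strongest GR member among them, in an intron of Zfp423, had a GR fold of 7.12 and an LSD1 starved fold of 3.42. The next 4 were in Gm19689 (GR fold 5.41, LSD1 starved fold 3.81) and near Bod1 (4.73 and 3.90), Spag17 (4.45 and 3.72) and Cd180 (4.30 and 3.31). The member nearest to Cd180, a receptor gene of B cells, lay 377 kb upstream of its TSS. It carried a GRE-like sequence with the change A1G. Its LSD1 starved peak (chr13:102316590-102316674, q-value 0.0748) overlapped the end of the member and did not cover the element. The sequence is shown here, with capitals marking the arms, because this member had both the element and an LSD1 starved peak.

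Cd180, A1G (chr13:102316477-102316505): catgcaaGGAACAcagTGTTCTcatatta

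The histone marks covered few members. H3K9me2 fed peaks overlapped 255 members (7.78%, 6.88 to 8.75) and 3.16% of their flanks, against 10.2% (9.09 to 11.3) of kept peaks without LSD1 and 16.5% of all GR fed peaks. The flanks of kept peaks without LSD1 were also above those of members, at 4.82% (4.3 to 5.4). H3K9me2 starved peaks overlapped 17 members (0.518%, with 0.766% of all GR fed peaks), and 16 of the 17 had a GR fold below 3. H3K9me1 peaks overlapped 29 members (0.884%) in the fed list and 59 (1.80%) in the starved list, against 2.27% and 2.80% of all GR fed peaks. For H3K9me1 in both conditions and for H3K9me2 starved, the intervals of members and of kept peaks without LSD1 overlapped. Lost peaks with LSD1 were more often marked, with 6.95% (5.37 to 8.82) for H3K9me1 fed and 5.94% (4.48 to 7.70) for H3K9me2 starved, but their flanks were also at 3.92% and 4.04%. As in members, H3K9me2 starved overlaps there were mostly at low fold, with 50 of 53 below a fold of 3.

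**Figure D5:**
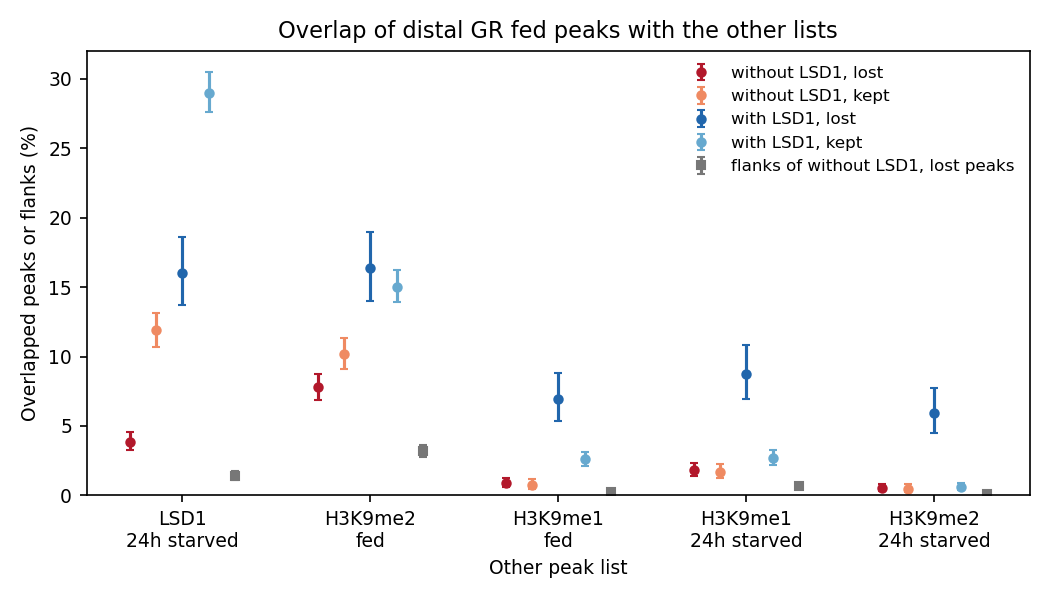
Share of peaks or flanks (%) overlapped by at least 1 bp by a peak of 5 lists that did not enter the choice of members, for the 4 classes of distal GR fed peaks and the flanks of members, with exact 95% intervals. Members (dark red) are at 3.87% for LSD1 starved and 7.78% for H3K9me2 fed, above their flanks and below kept peaks without LSD1 (11.9% and 10.2%). The flanks of those kept peaks, not drawn, were at 2.97% and 4.82%.

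By nearest TSS, the members belonged to 2600 genes, which are 9.93% of the 26180 annotated genes and 34.2% of the 7609 to which a GR fed peak was assigned. Most of these genes had a starved GR peak at another position. Of the 2600, 2188 (84.2%, 82.7 to 85.5) were also nearest to a starved GR peak, as were 54.8% of all annotated genes, and 1283 (49.3%) also had a fed GR peak that was kept. A single member was assigned to 2098 genes, and 130 had 3 or more. Whether any gene's expression moved with these sites was not measured here.

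Stim2, which encodes a calcium sensor of the endoplasmic reticulum, had the most members. Of its 8 GR fed peaks, 7 were members, with folds from 2.89 to 3.59, and 6 starved GR peaks were assigned to the gene. Its 5 intronic members lay from 0.689 to 92.7 kb downstream of the TSS, and 1 of them was overlapped by an LSD1 starved peak. 9430078K24Rik, Arhgap26, Limch1 and Nfib had 5 members each. Nfib encodes a transcription factor that binds NF1 motifs. All 5 Nfib members were intronic, with folds from 3.02 to 3.27, and no GR fed peak without LSD1 was kept at the gene. The Nfib member 46.6 kb downstream of the TSS carried a GRE-like sequence.

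The lists of genes used next were chosen with earlier results of these data known, and the counts are descriptions. Of all annotated genes 9.93% were nearest to a member, as were 34.2% of those with a GR fed peak. The list shares below count all listed genes, with or without a GR fed peak, so the number with one is given as well. Among 22 classic GR target genes, 15 were nearest to a member (68.2%), and every one of the 22 had peaks in both GR lists. The 65 distal peaks without LSD1 at these genes included 25 members, a lost share of 38.5% against 52.3% over all such peaks. Tsc22d3, the gene of the leucine zipper protein GILZ and a widely used GR target, had 3 members, with folds of 4.13, 4.52 and 5.42, the last of them in its own intron and 24.6 kb from a starved peak. Zbtb16, a zinc finger repressor gene induced by glucocorticoids, had 5 intronic members of fold 2.77 to 3.83 among 26 GR fed peaks, beside 32 starved peaks. Sgk1, a kinase gene, had 4 members of fold 2.88 to 3.16. Fkbp5, Per1, Dusp1, Klf9, Klf15, Cebpd, Nfkbia, Pdk4, Angptl4, Glul and Gadd45g had 1 member each and Sesn1 had 2. The Gadd45g member (fold 3.69) carried a GRE-like sequence, and the Klf15 member (3.12) was overlapped by an LSD1 starved peak.

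Genes of myogenic transcription factors had members at 10 of 19 genes (52.6%), and 21 of their 38 distal peaks without LSD1 were lost (55.3%). The lost share was near the 52.3% over all genes, and 34.2% of all genes with a GR fed peak had a member. Of the 19 listed genes, 17 had a GR fed peak. Mef2c, which drives muscle structural genes, had 4 members among 7 GR fed peaks. Its strongest member, of fold 4.53, lay 97.1 kb upstream of the TSS and 197 kb from the nearest starved peak. Eya1, a transcriptional coactivator gene, held the strongest member of the list, of fold 6.01 in an intron. Mef2a, Tead1 and Sox6 had 3 members each, Tbx15 had 2, and Mef2d, Six4, Six2 and Pax7 had 1 each. The Six2 member (fold 3.65) and 1 Tead1 member (3.01) carried GRE-like sequences.

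Among sarcomere and Z-disc genes, 9 of 25 (36%) had members, which were 12 of 34 distal peaks without LSD1 (35.3%). Over all genes 52.3% of such peaks were lost, and 34.2% of genes with a GR fed peak had a member. Of the 25 listed genes, 21 had a GR fed peak. Myl1, a fast myosin light chain gene, had 4 members of fold 2.94 to 4.50 among 8 GR fed peaks, and 2 starved peaks. Ttn, Neb, Mybpc1, Mybpc2, Tnni2, Tpm1, Myoz1 and Xirp1 had 1 member each. In excitation-contraction coupling, 7 of 21 genes (33.3%) had members, and 10 of 28 peaks were lost (35.7%). Of these 21 genes, 19 had a GR fed peak. At Trdn, which encodes the calcium release protein triadin, all 3 GR fed peaks were members, with folds of 3.37, 3.52 and 3.82, and the 1 starved peak lay elsewhere. A member in an intron of Stim1, the relative of Stim2, had a fold of 4.69 and a GRE-like sequence.

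Genes of muscle atrophy had members at 5 of 18 genes (27.8%), and 8 of their 27 distal peaks without LSD1 were lost (29.6%). Of all genes with a GR fed peak 34.2% had a member, and 52.3% of all such distal peaks were lost. All 18 listed genes had a GR fed peak. Nedd4, a ubiquitin ligase gene, had 3 members, of fold 2.88 to 4.62, and Cblb had 2. Fbxo32, which encodes the muscle ubiquitin ligase atrogin-1, had 1 member of fold 2.88 in an intron, with a starved peak 0.728 kb away, and 19 starved peaks in all against 4 fed ones. Fbxo31 and Traf6 had 1 member each. In insulin and IGF1 signalling 20 of 22 genes had a GR fed peak. Members were 8 of 28 peaks (28.6%) and lay at 7 of the 22 genes (31.8%). Both receptor genes were among them, Insr with an intronic member of fold 4.07 and Igf1r with one of fold 4.18. The others were Irs1, Pik3r1, Foxo1, Tbc1d4 and Grb10.

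Of the smaller lists, myostatin, activin and BMP signalling had members at 5 of 19 genes (26.3%), where 6 of 11 distal peaks without LSD1 were lost (54.5%), among them at Smad6, an inhibitor of BMP signalling, with an intronic member of fold 5.04. The circadian clock had 5 of 20 genes (25%) and lost 36.8% of its 19 such peaks, with 2 members each at Rora and Nfil3. Fuel use had 6 of 28 genes (21.4%) and lost 44.4% of its 18 such peaks, with 3 members of fold 3.08 to 3.45 at Ppargc1a, the coactivator gene of mitochondrial biogenesis. The neuromuscular junction had 5 of 19 genes (26.3%) and lost 35.7% of its 14 such peaks, beside 52.3% of these peaks over all genes, and its member nearest to Rapsn, in an exon of Celf1, had a fold of 4.78 and a GRE-like sequence. Of all genes with a GR fed peak, 34.2% had a member. A GR fed peak was assigned to 10 of the 19 myostatin, activin and BMP genes and to 18 of the 20 clock genes. The number was 25 of the 28 fuel use genes and 13 of the 19 neuromuscular junction genes. In the 10 lists of this and the preceding paragraphs, every gene with a member also had a starved GR peak assigned to it, against 84.2% of all genes with a member. Most listed genes had a starved peak with or without a member, from 16 of 19 at the neuromuscular junction to 22 of 22 classic GR targets.

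Marker genes of other tissues and cells, which whole muscle or a mixed sample could hold, were near members at 0 to 2 genes per list. Members were nearest to 2 of 12 liver genes (Apoa1 and Cyp7a1, 16.7%), 1 of 12 neuron genes (Rbfox3), 1 of 12 lymphocyte genes (Cd3e), 1 of 12 endothelial genes (Flt1, which also had an LSD1 starved peak on its member) and 0 of 12 adipocyte genes, which allows a share of up to 26.5%. The 3 members assigned to Apoa1 lay in introns of the neighbouring kinase gene Sik3. Few of these genes had a GR fed peak at all, namely 2 liver, 2 neuron, 3 lymphocyte, 3 endothelial and 2 adipocyte genes. Of all genes with a GR fed peak, 34.2% had a member, and across all annotated genes the share was 9.93%. With 12 genes per list the intervals were wide, from 2.09 to 48.4 for liver, so closeness to 9.93% could not be shown. Of distal peaks without LSD1, 4 of 5 were lost at liver genes, 1 of 2 at neuron and 1 of 1 at lymphocyte genes. At endothelial genes it was 1 of 3 and at adipocyte genes 0 of 1. Cyp7a1 and Cd3e had no starved GR peak assigned to them.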

How the data were processed

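ChIP-seq of mouse skeletal muscle was processed by the authors, who mapped single-end reads to mm10 (GRCm38), kept uniquely mapped reads and called broad peaks per library with MACS2 against input. The submitters' processing notes also name bcl2fastq 2.20.0.422. Each deposited list gave per peak a fold enrichment (a ratio to input), a −log10 p-value and a −log10 q-value, all as computed by the authors, and a deposited score that was not used. The least stringent q-value was 0.0974 in GR fed and 0.0970 in GR starved. For LSD1 starved, the deposited list holds far more peaks (66332) than the study's text gives, and it was taken as it stands. Whether all lists were made with the same settings is not clear. Peak names carry another version of the aligner than the methods name, and no GR peak was shorter than 110 bp (starved) or 117 bp (fed), while the other lists went down to 49 to 55 bp, which bears on the overlap shares.

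The members and lists were chosen with earlier results of these data known. Peaks overlapped when they shared 1 bp. Midpoints were assigned to promoters, exons, introns or intergenic sequence and to the nearest TSS with 45756 curated RefSeq transcripts of 26180 genes (GRCm38.p6). Shares carry exact (Clopper-Pearson) 95% intervals, and with 1 library per group no p-value is given. Motif and base composition values cover chromosomes 1 to 19, X and Y, which left out 1 kept peak without LSD1 (2994 of 2995) and 23 lost peaks with LSD1 (869 of 892). Named peaks were the 10 members of highest fold, up to 10 with a GRE without mismatch, the 5 of highest fold with LSD1 starved, and those nearest to the limit of overlap, of which 1 on each side was chosen by rule and the next were added. A kept peak next to that limit is not reported here. Named genes were the 5 with most members (ties by name) and listed genes with a member. The other members named were chosen after their values were seen. Alternatives were q-values of 0.01, a fold of at least 5, lists lengthened by 500 bp, an overlap of 50% of the shorter peak, other promoter limits, autosomes and X only, and other motif and distance limits. Fold ranges, the NF1 arm, a q-value of 0.01 for LSD1 starved peaks and the 300-bp window for motifs other than the GRE were added after seeing the data. Overlap, motif and promoter functions were tested on simulated data. Python 3.11.15, numpy 2.4.6, pandas 2.3.3, scipy 1.17.1 and matplotlib 3.10.9 were used.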

Additional observations from a re-analysis of the deposited data

How the results depend on the processing

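Of 78 alternative values, 47 stayed within the 95% interval of the reported value or, for the number of members, within 1.5 times it, and 31 moved. Requiring a GR fed q-value of 0.01 or less left 1845 members, with a lost share of 44.4%, 4.61% with a GRE-like sequence and 49.7% with a starved GR peak within 10 kb. A fold of at least 5 left 95 members, with a lost share of 16%, 62.1% in introns, 2.11% with LSD1 starved, 1.05% with H3K9me1 starved, 13.7% with a GRE-like sequence and 44.2% with a starved peak within 10 kb. A GR starved q-value of 0.01 or less gave 4234 members, with a lost share of 67.5%, 5.27% with LSD1 starved and 32.7% with a starved peak within 10 kb. Lengthening the LSD1 fed and GR starved peaks by 500 bp gave a lost share of 49.9% and 48.1% within 10 kb. An overlap of 50% of the shorter peak gave 55.6% lost, 6.05% with H3K9me2 fed, 1.32% with H3K9me1 starved and 56.4% within 10 kb. Without mismatch the GRE share was 0.488%, and with 2 mismatches it was 12%. A starved peak lay within 1 kb of 11.7% and within 50 kb of 83.2%. By fold range, added after seeing the data, the GRE share was 0.723% below 3, 6.34% from 4 to 5 and 13.7% at 5 or more, and the LSD1 starved share was 4.88%, 1.81% and 2.11%. With LSD1 starved peaks of q-value 0.01 or less, also added then, 0.701% of members were overlapped. The promoter limits and the restriction to autosomes and X moved none of the values they were applied to. No paired analysis was possible because each group had 1 library, which also means that no library could be left out. What the unknown depth of the libraries limits could not be measured.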
